A study of Rattus norvegicus with 8 samples.

Results

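A set of 10 transcripts of the mitochondrial genome was followed in burned and unburned rat skin. They were taken by Ensembl identifier from a fixed list, and 10 of the 10 listed identifiers were present among the 26404 genes of the deposited count table. The list gives their symbols as Nd1, Nd2, Nd3, Nd4, Nd5, Cyb, Co1, Co2, Co3 and Atp6. The count table itself pairs no identifier with a symbol, so the names rest on that list. Sprague-Dawley rats of 125 to 200 g were anaesthetised with 1.5 g/kg urethane and kept at a body temperature of 37 °C, and received 40 mg sodium pentobarbital as terminal anaesthesia before the skin was excised. The burn group is skin from a hind paw held for 2 min in saline at 60 °C, which gives a deep partial-thickness burn. The control group is skin from the opposite paw of burned animals, held at the same time in saline at room temperature. Both groups therefore share the anaesthetics, the immersion and an animal with a burn, and both were sampled on the back of the paw where a microdialysis probe had been placed. Each group has 4 libraries of poly(A)-enriched RNA, and the labels give no sex or age, no interval from burn to excision and no animal behind a library. The tissue could not be checked against skin markers, because no identifier of a marker gene was paired with a symbol.

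Mitochondria carry a small circular genome that encodes core subunits of the respiratory chain, while most subunits are encoded in the nucleus. It is transcribed as long RNAs spanning many genes, which are cut into single transcripts and given poly(A) tails, so these transcripts are captured by poly(A) enrichment. Nd1 to Nd5 encode subunits of complex I, which takes electrons from NADH, Cyb encodes cytochrome b of complex III, Co1 to Co3 encode the core of complex IV, which passes electrons to oxygen, and Atp6 encodes a membrane subunit of complex V, the ATP synthase. Because several transcripts come from a shared precursor, the 10 transcripts are not independent measurements. The nuclear subunits of these complexes and the other mitochondrial transcripts, such as Nd4l, Nd6 and Atp8, were not analysed here.

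Libraries held 13693811 to 18738652 counts in burn and 17824830 to 26837925 in control. Burn replicate 3 stood apart from burn replicates 1, 2 and 4 and is given separately throughout. It had counts for 15354 genes, where the other 7 libraries had counts for 17322 to 17547. Their counting error was small beside the differences described below, the widest 95% Wilson interval being ±2.17% of the share, for Nd2 in burn replicate 3.

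The 10 transcripts together made up 30.6%, 33.5% and 30.3% of all counts across burn replicates 1, 2 and 4, but only 2.72% in burn replicate 3. The control libraries 1 to 4 had 5.59%, 5.26%, 7.72% and 5.25%. Of the burn libraries, 3 thus lay far above every control library and 1 lay below every control library, so the groups overlapped. The burn mean of 24.3% ± 14.4 (SD, n = 4) was 18.3 percentage points above the control mean of 5.96% ± 1.19 (SD, n = 4). This difference did not pass the threshold (exact permutation, two-sided p = 0.143). In that test, exchanging burn replicate 3 for any control library gives a larger difference, so its low value sets the p. Without burn replicate 3 the burn mean was 31.5% ± 1.73 (SD, n = 3) and the difference 25.5 percentage points (exact permutation, two-sided p = 0.0571, the smallest that 3 libraries against 4 allow). Leaving out this library was chosen with its values known. As a ratio to the counts of all other genes, there were 44.1, 50.3 and 43.5 member counts per 100 other counts among burn replicates 1, 2 and 4, 2.80 in burn replicate 3 and 5.54 to 8.37 in control. A share rises alike when the RNA of its own genes rises and when the RNA of the other genes falls, and with no spike-in these cannot be told apart. In skin as a whole, fewer cells of a type and less RNA per cell cannot be told apart either.

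**Figure D1:**
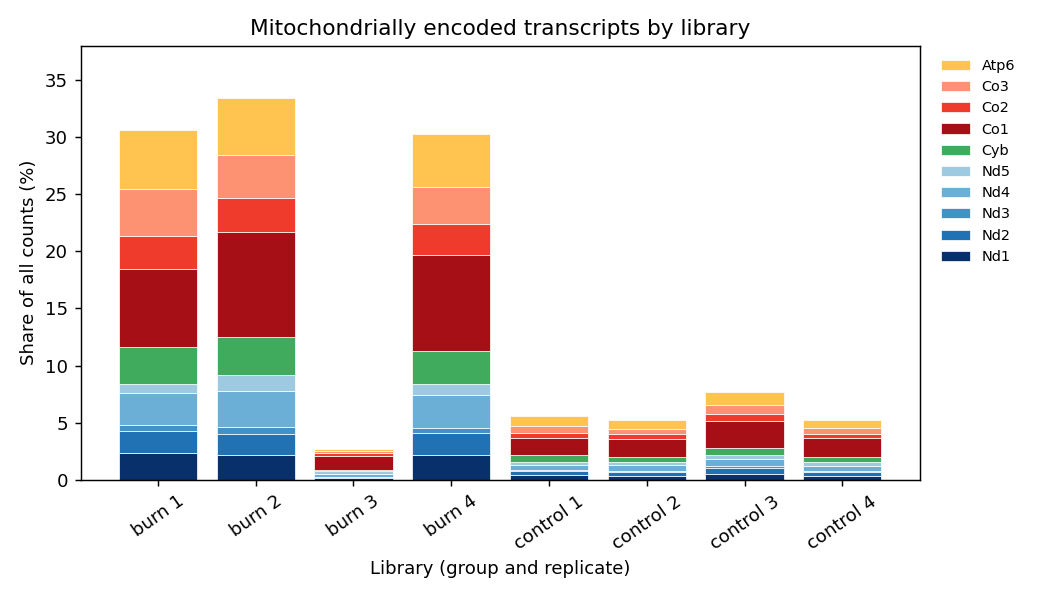
Share of all counts (%) in each library, 1 bar per library, stacked by transcript from Nd1 at the bottom to Atp6 at the top. Burn replicates 1, 2 and 4 stand at 30.3% to 33.5%, burn replicate 3 at 2.72% and the control libraries at 5.25% to 7.72%.

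The transcripts of complex I were described first, as shares of all counts and as a fold over the control mean after TMM scaling, which equalises libraries on the bulk of their genes. Nd1 (ENSRNOG00000030644), a membrane subunit of complex I, took 2.29%, 2.15%, 0.159% and 2.14% of counts across burn replicates 1 to 4 and 0.367%, 0.323%, 0.501% and 0.333% across control replicates 1 to 4. That is 7.76, 7.60 and 6.82 times the control mean among burn replicates 1, 2 and 4 and 0.379 times in burn replicate 3, which was below every control. Nd2 (ENSRNOG00000031033), another membrane subunit, took 1.97%, 1.89% and 1.92% among burn replicates 1, 2 and 4 and 0.317% to 0.522% in control. In burn replicate 3 it took 0.0515%, with a 95% Wilson interval of 0.0504% to 0.0526%, from 8189 counts. At 0.121 times the control mean this was the lowest of the 10 transcripts in that library, while Nd2 was at 6.03 to 6.59 times that mean among burn replicates 1, 2 and 4.

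Nd3 (ENSRNOG00000033615), a short membrane subunit, took 0.550%, 0.580% and 0.452% of counts across burn replicates 1, 2 and 4, 0.0671% in burn replicate 3 and 0.0952% to 0.136% in control. Nd4 (ENSRNOG00000029707), a proton-pumping subunit, took 2.78%, 3.17% and 2.88% among burn replicates 1, 2 and 4, 0.179% in burn replicate 3 and 0.475% to 0.667% in control. Both repeated the order seen for Nd1, with 3 burn libraries above every control and burn replicate 3 below. Nd5 (ENSRNOG00000029971), also a proton-pumping subunit, departed from that order. It took 0.769%, 1.36%, 0.318% and 1.03% across burn replicates 1 to 4 and 0.251%, 0.250%, 0.324% and 0.279% across control replicates 1 to 4. Burn replicate 3 was inside the control range for Nd5, at 1.04 times the control mean, and burn replicates 1, 2 and 4 were at 3.58, 6.64 and 4.54 times that mean. The 3 high burn libraries were thus farther apart for Nd5 than for any other of the 10 transcripts, with an SD of 0.45 log2 units against 0.07 for Nd2.

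Cyb (ENSRNOG00000031766), the only subunit of complex III encoded in mitochondria, took 3.23%, 3.31%, 0.0992% and 2.84% of counts across burn replicates 1 to 4. Across control replicates 1 to 4 it took 0.567%, 0.474%, 0.667% and 0.495%. Burn replicates 1, 2 and 4 were 7.56, 8.08 and 6.28 times the control mean and burn replicate 3 was 0.163 times, below every control.

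Of the complex IV transcripts, Co1 (ENSRNOG00000034234), which encodes the subunit holding the oxygen-reducing site, took 6.91%, 9.25%, 1.21% and 8.40% of counts across burn replicates 1 to 4. Across control replicates 1 to 4 it took 1.48%, 1.59%, 2.32% and 1.60%. Burn replicate 3 was below every control, though at 0.628 times the control mean it was much nearer to them than Cyb was. Co2 (ENSRNOG00000030371), whose product receives electrons from cytochrome c, took 2.87%, 2.93%, 0.264% and 2.71% across burn replicates 1 to 4 and 0.401% to 0.635% in control. Co3 (ENSRNOG00000030700), the remaining core subunit, took 4.05%, 3.83%, 0.203% and 3.30% across burn replicates 1 to 4 and 0.474% to 0.783% in control. Co3 had the highest folds of the 10 in burn replicates 1 and 2, 8.72 and 8.60 times the control mean, and Co2 the highest in burn replicate 4, 7.05 times.

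Atp6 (ENSRNOG00000031979), which encodes a subunit of the proton channel of complex V, took 5.17%, 4.99%, 0.171% and 4.65% of counts across burn replicates 1 to 4. Across control replicates 1 to 4 it took 0.905%, 0.780%, 1.17% and 0.756%. Burn replicates 1, 2 and 4 were 7.39, 7.46 and 6.27 times the control mean, and burn replicate 3 was 0.171 times. Atp6, Cyb and Nd2 were the 3 transcripts farthest below the control mean in burn replicate 3, and each belongs to a different complex.

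**Figure D2:**
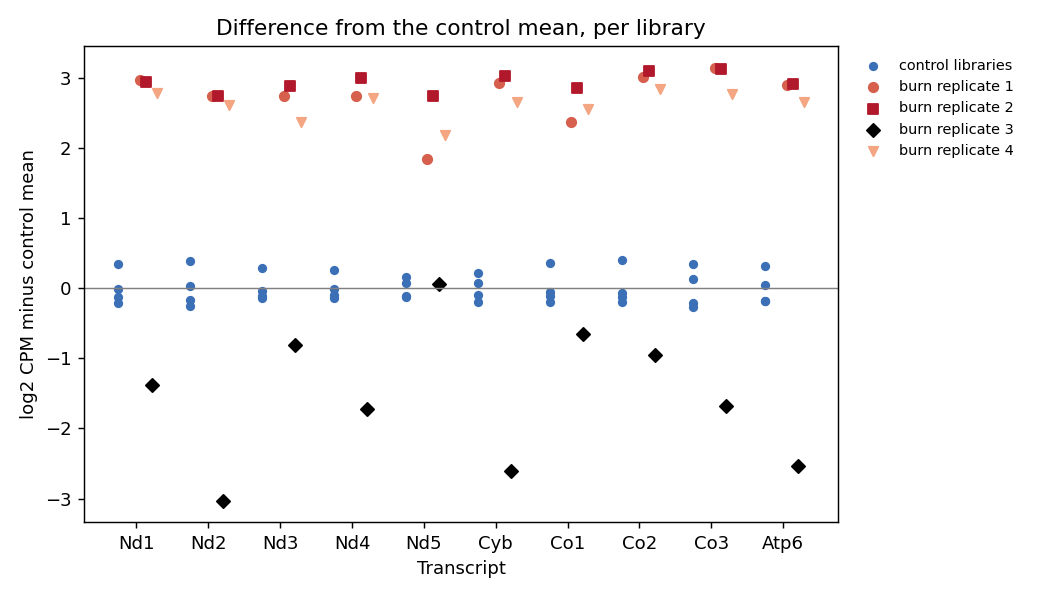
Normalised abundance (log2 CPM, that is, log2 of TMM-scaled counts relative to library size) of each transcript in each library minus the mean of the 4 control libraries, 1 point per library, blue for control, shades of red for burn replicates 1, 2 and 4 and black diamonds for burn replicate 3. The red points lie 1.85 to 3.15 log2 units above the control mean, and the black diamonds run from -3.03 for Nd2 to 0.06 for Nd5.

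The same order of libraries was counted over all genes tested. It had been read from these 10 transcripts, so their counts describe that order and do not test it. Burn replicates 1, 2 and 4 lay above every control library for 10 of the 10 transcripts, as they did for 21.3% of the 14240 genes tested. Burn replicate 3 lay at the same time below every control for 9 of the 10, the exception being Nd5, against 3.01% of all genes. The transcripts descend from shared precursors, so these counts do not represent 10 separate events. No transcript had all 4 burn libraries above every control, against 15.4% of all genes.

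Each transcript was then tested for a difference between burned and unburned skin. With all 8 libraries, 5 of the 10 transcripts were higher in burn and 0 were lower by the edgeR quasi-likelihood test at a Benjamini-Hochberg adjusted p under 0.05, where 11.9% of the 14240 genes tested were called higher and 21.9% were called in either direction. All 10 had an unadjusted edgeR p under 0.05, DESeq2 called 10 higher, beside 16.7% of all genes, and limma-voom 1, beside 10.8%, and neither called any of the 10 lower. The 5 were Nd5, with a log2 fold change estimated at 1.98 (SE 0.51, edgeR adjusted p = 0.0255), Nd3 with 2.30 (SE 0.64, edgeR adjusted p = 0.0350), Co2 with 2.58 (SE 0.73, edgeR adjusted p = 0.0370), Nd1 with 2.50 (SE 0.76, edgeR adjusted p = 0.0468) and Co1 with 2.23 (SE 0.69, edgeR adjusted p = 0.0489). The other 5 had estimates of similar size that did not pass. Co3 had a log2 fold change of 2.60 (edgeR adjusted p = 0.0530), Nd4 of 2.42 (edgeR adjusted p = 0.0578), Cyb of 2.46 (edgeR adjusted p = 0.0789), Atp6 of 2.41 (edgeR adjusted p = 0.0838) and Nd2 of 2.27 (edgeR adjusted p = 0.102). The 5 that did not pass are the 5 with the largest standard errors, 0.79 to 0.90, and the 5 with the lowest values in burn replicate 3 relative to control. Whether called and uncalled transcripts differ in their change was not tested. The median log2 fold change of the 10 was 2.42, beside 0.06 for all genes tested. These estimates compare group means on the count scale. On the log2 CPM scale, where a low library weighs more, Nd2 averaged 13.04 ± 2.86 in burn and 11.78 ± 0.28 in control (SD, n = 4).

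The number of these calls changed when single libraries were left out. Without burn replicate 3, 10 of 10 transcripts were called higher by edgeR, beside 16.0% of the 14462 genes then tested (29.3% in either direction). Their log2 fold changes ran from 2.30 (SE 0.24) for Nd5 to 3.00 (SE 0.23) for Co3, with edgeR adjusted p-values of 0.000370 to 0.00164. That library was set apart for its values in these same transcripts, so the smaller standard errors and p-values follow in part from that choice. The calls without it are therefore a description and not a separate test. Without burn replicate 1 or any single control replicate, edgeR called 0 of the 10, although 7 to 9 had an unadjusted p under 0.05 and the median log2 fold change of the 10 stayed between 2.24 and 2.52. Calls were fewer over all genes too, at 7.48% higher without burn replicate 1 and 5.58%, 4.62%, 6.49% and 5.81% without control replicate 1, 2, 3 and 4, against 11.9% with all libraries. Without burn replicate 2 the test called Co2, Nd3 and Nd5, beside 12.9% of all genes, and without burn replicate 4 it called Nd5 alone, beside 10.5%. The sign of the estimate was positive for every transcript in each of these refits.

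**Figure D3:**
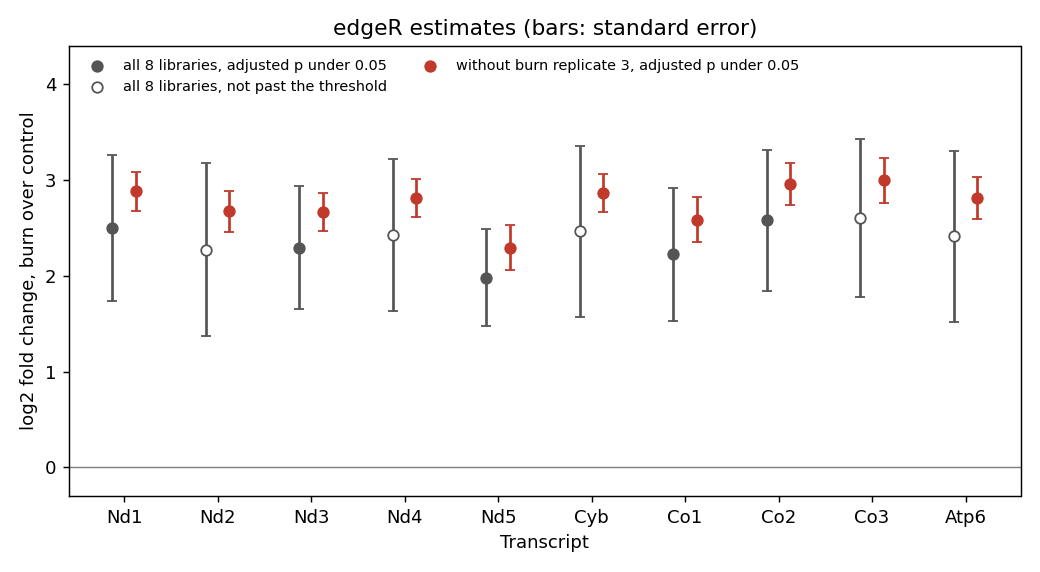
The edgeR log2 fold change of each transcript, burn over control, with its standard error, for all 8 libraries (grey, n = 4 and 4) and without burn replicate 3 (red, n = 3 and 4), filled where the adjusted p was under 0.05 and open where it was not. With all libraries the estimates run from 1.98 to 2.60 and 5 are filled, and without burn replicate 3 they run from 2.30 to 3.00 with all 10 filled. Burn replicate 3 was set apart for its values in these same transcripts, so the red estimates are not a separate test.

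The scaling between libraries moved with these transcripts. The TMM factors were 0.807 to 0.894 among burn replicates 1, 2 and 4, 1.20 in burn replicate 3 and 1.05 to 1.14 in control. When the 10 transcripts were left out of the library sizes and of the factors, the factors lay between 0.952 and 1.07 in all 8 libraries. Tested against the other genes in this way, the estimates were 2.01 to 2.64 log2 units with a median of 2.45, and edgeR called 6 of the 10 higher, Co3 joining the 5 above, beside 13.0% of all genes tested. Library size alone gave estimates of 1.66 to 2.25 and called 3 of the 10 higher, beside 6.28% of all genes.

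Spread within groups was set beside that of all genes, on the log2 CPM scale. In control the SD of the 10 transcripts was 0.14 to 0.29 with a median of 0.24, close to the median of 0.25 over all genes. In burn it was 1.16 to 2.86 with a median of 2.21, where all genes had a median of 0.52. Without burn replicate 3 it was 0.07 to 0.45 with a median of 0.17, where all genes had 0.36. The wide spread of the burn group thus came with burn replicate 3. That library was set apart for its values in these same transcripts, so the small spread without it follows in part from that choice. The 10 transcripts were also all among the 25 genes of highest mean share, and genes of similar abundance were not compared.

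The make-up of the mitochondrial counts was then compared, that is, the share of each transcript in the summed counts of the 10. This ratio lies within a library and needs no scaling between libraries. Co2 took 9.39%, 8.75%, 9.71% and 8.93% across burn replicates 1 to 4 and 7.71%, 7.62%, 8.23% and 7.73% across control replicates 1 to 4. It was the only transcript whose 4 burn and 4 control values did not overlap. Its means of 9.20% ± 0.43 and 7.82% ± 0.27 (SD, n = 4) gave the smallest p the design allows in a two-sided exact permutation test (p = 0.0286), which did not pass after adjustment over the 10 transcripts (adjusted p = 0.286). None of the other 9 passed either (exact permutation tests, adjusted p = 0.857 for Nd2 and 1 for the rest), and Co2 was the only transcript of the 10 with an unadjusted p under 0.05. With 4 libraries a group and 10 tests, no single transcript could pass alone.

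Burn replicate 3 differed from the other 7 libraries in make-up as well as in amount. Co1 took 44.4% of its mitochondrial counts, against 22.6% to 27.7% in burn replicates 1, 2 and 4 and 26.5% to 30.4% in control. Nd5 took 11.7%, against 2.51% to 4.08% in burn replicates 1, 2 and 4 and 4.19% to 5.33% in control. Nd3 was also above all other libraries there, at 2.47% against 1.49% to 1.89%. Nd2 was low at 1.89%, where the other 7 libraries had 5.65% to 6.82%. Cyb at 3.65% and Atp6 at 6.27% were low too, against 8.64% to 10.6% and 14.4% to 16.9% elsewhere. Within that library the 10 transcripts ranged over 3.09 log2 units relative to the control means, while they ranged over 0.39 to 1.30 in burn replicates 1, 2 and 4 and 0.23 to 0.34 in the control libraries.

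The make-up of the 3 high burn libraries was set beside that of control (exact permutation tests, lowest adjusted p = 0.286). No transcript could pass whatever its values, since 3 libraries against 4 allow no p under 0.0571. Nd5 took 2.51%, 4.08% and 3.41% in burn replicates 1, 2 and 4, each below the lowest control value of 4.19%. The mean was 3.33% ± 0.78 (SD, n = 3) against 4.69% ± 0.48 (SD, n = 4), with a two-sided exact permutation p of 0.0571 and an adjusted p of 0.286. With burn replicate 3 included, Nd5 had a higher mean in burn than in control, 5.42% against 4.69%, so the direction rests on that library. Co1, by contrast, averaged 26.0% ± 2.94 (SD, n = 3) without burn replicate 3 and 29.3% ± 1.86 (SD, n = 4) in control, with overlapping values. Co2 averaged 9.03% ± 0.33 (SD, n = 3) without burn replicate 3, above every control value.

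**Figure D4:**
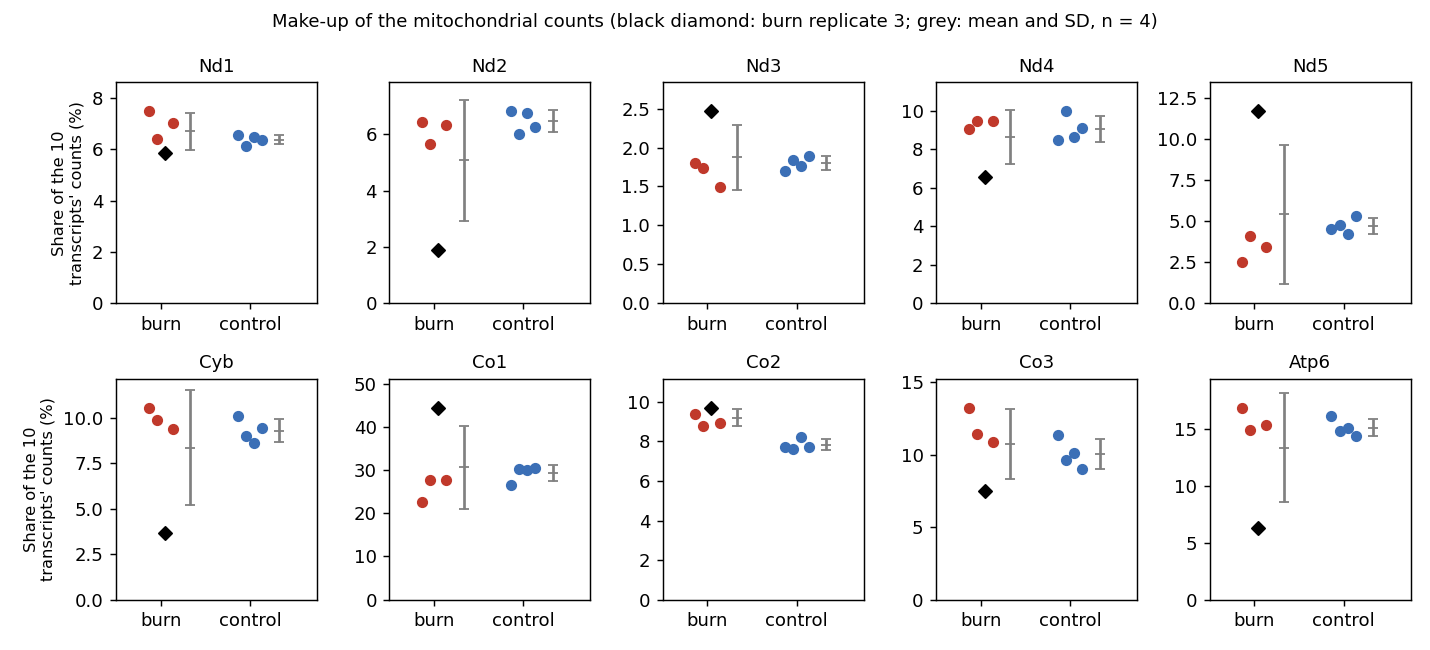
Share of each transcript in the summed counts of the 10 transcripts (%), 1 panel per transcript and 1 point per library, red for burn, blue for control and black diamonds for burn replicate 3, with the group mean and SD (n = 4) in grey. Co2 has no overlap between the groups, and the diamond lies far above the other libraries for Nd5 (11.7%) and Co1 (44.4%) and far below for Nd2 (1.89%), Cyb (3.65%) and Atp6 (6.27%).

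Summed by complex, the make-up varied least for complex I, with an SD of 0.53 percentage points in each group (n = 4). Its 5 transcripts took 27.3%, 27.4%, 28.5% and 27.8% of the mitochondrial counts in the burned paws, replicates 1 to 4, and 27.8% to 29.0% in control. The complex I share of burn replicate 3 was thus inside the control range although Nd2 was low and Nd5 high within it. Complex IV took 61.6% in burn replicate 3, against 45.2% to 47.8% in burn replicates 1, 2 and 4 and 45.6% to 48.4% in control. Exact permutation tests separated none of the 4 complexes between burn and control (two-sided, adjusted p = 0.457 for complex I and 0.886 for complexes III, IV and V, with 0 of 4 under an unadjusted 0.05). With 4 libraries a group and 4 tests, no single complex could pass alone after adjustment. Without burn replicate 3, the complex I shares of the remaining 3 burn libraries were all below the lowest control share, with means of 27.5% ± 0.25 (SD, n = 3) and 28.4% ± 0.53 (SD, n = 4), an exact permutation p of 0.0571, the smallest possible there, and an adjusted p of 0.229.

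Among 12183 other genes with a mean of at least 1 log2 CPM, those whose log2 CPM followed the summed transcripts most closely over the 8 libraries were ENSRNOG00000014078, with Pearson's r of 0.990, and ENSRNOG00000020102, with 0.989. These values are descriptions without a test, and the highest of so many correlations over 8 libraries is high by selection. In both, burn replicates 1, 2 and 4 were the highest libraries and burn replicate 3 the lowest on this scale. As a share of all counts the order was not kept for ENSRNOG00000014078, which had 0.00802% in control replicate 3 against 0.00785% and 0.00756% in burn replicates 1 and 2. It was kept for ENSRNOG00000020102, from 0.00830% in burn replicate 3 to 0.0142% in burn replicate 2. The log2 CPM scale uses the TMM factors, which moved with the 10 transcripts, and their part in the likeness was not tested. ENSRNOG00000014078 had 1075 to 1883 counts per library and a fitted log2 difference of 0.34 (SE 0.17, edgeR adjusted p = 0.183), and ENSRNOG00000020102 had 1321 to 2658 counts and 0.55 (SE 0.26, edgeR adjusted p = 0.164).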

How the data were processed

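Poly(A)-enriched RNA of 4 burn and 4 control skin libraries was analysed. The authors deposited raw integer counts of reads for each Ensembl gene, unscaled and in 1 column for each library. Per the submitters' processing notes, TopHat2 2.0.9, HTSeq 0.5.4p3, edgeR, R 3.0.1, limma and the build Rnor_5.0 were used. The sources used here do not give their roles, the annotation or the strand setting, so reads shared with overlapping mitochondrial genes or with nuclear copies of mitochondrial sequence could not be separated. None of the 47357 genes of the reference table (GRCr8) carried an Ensembl rat identifier, so preset marker and nuclear gene lists were not analysed here. No length, sequence or coordinate of the 10 transcripts was used. Apart from the rank by mean share, which is not corrected for length, counts are not compared between genes as levels.

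Groups follow the treatment label. Replicate numbers follow accession order and pair nothing. The labels do not say that libraries of a group come from separate animals, and a p-value here speaks of these samples' spread, which may be technical.

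All genes were fitted with edgeR 4.0.16 in R 4.3.3 (quasi-likelihood test, robust, TMM, default filter, group alone), two-sided, with Benjamini-Hochberg adjustment over 14240 genes and a threshold of 0.05. The procedure was tested on simulated data, in which genes varied separately and no single library was made to stand apart. The standard error is the log2 fold change divided by the square root of F. Log2 CPM used a prior count of 2. Single values were compared by exact permutation tests in scipy 1.17.1, adjusted within their family (10 transcripts, 4 complexes). All 10 transcripts were named, with the 2 most similar other genes. Members, lists and alternatives were chosen with earlier results of these data known. Alternatives used DESeq2 1.42.0, limma 3.58.1 and sva 3.50.0, other scalings and filters, and each library left out. Intervals cover counting error only.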

Additional observations from a re-analysis of the deposited data

Results flagged for a closer look

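A screen for libraries lying far outside the rest of their group was made on 46 sets of 4 values, and 15 sets held such a library. About 1 in 20 would be picked by chance if the sets were separate. They share genes and libraries, so that rate is no measure for them. Burn replicate 3 was picked in 10. Its summed share of all counts was 2.72%, where replicates 1, 2 and 4 had at least 30.3%. Its shares were 0.159% for Nd1 (2.14% or more elsewhere in burn), 0.0515% for Nd2 (1.89% or more), 0.264% for Co2 (2.71% or more), 0.171% for Atp6 (4.65% or more), 0.179% for Nd4 (2.78% or more) and 0.0992% for Cyb (2.84% or more). Within the mitochondrial counts it held 6.56% for Nd4 (9.07% or more elsewhere in burn), 11.7% for Nd5 (4.08% or less) and 61.6% for complex IV (47.8% or less). That library also had the fewest genes with a count, 15354, and the part of this in the result was not tested.

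Control replicate 3 was picked in 4 screens, all as the highest control. Its summed share was 7.72%, against 5.59% or less in the other controls, with 2.32% for Co1 (1.60% or less), 0.635% for Co2 (0.431% or less) and 0.136% for Nd3 (0.0993% or less). It was also the shallowest control library, at 17824830 counts, and the part of depth was not tested. Control replicate 1 was picked for Co1, which took 26.5% of its mitochondrial counts, against 30.0% or more in the other controls.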

How the results depend on the processing

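The sign of the edgeR, limma-voom or DESeq2 estimate was positive for all 10 transcripts under the 19 alternatives run, but the number called higher, 5, depended on the setting. Beside the share of all genes called higher in the same fit, it was 3 with library size alone (6.28%), 3 with no filter (6.75%), 1 (Nd5) by limma-voom (10.8%), 10 by the DESeq2 Wald test (16.7%) and 10 by limma-voom with quality weights (15.8%). Of the 3 alternatives added after seeing the data, a fit without robust estimates gave 4 (12.0%), with Co1 lost at an adjusted p of 0.0541, 1 surrogate variable gave 9 (19.1%), and burn replicate 3 left out together with the members in the library size gave 10 (16.9%). Leaving out 1 library gave 0 (without burn replicate 1 or any control replicate) to 10 (without burn replicate 3). The cause of these changes was not tested. The background of 1689 genes called higher and 1426 lower moved to 894 higher with library size alone, 2203 lower by DESeq2 and 2724 higher and 2908 lower with 1 surrogate variable, and leaving out 1 library gave 673 to 2314 higher and 546 to 1929 lower. The summed share kept its direction and stayed short of the threshold with each library left out, although 3 libraries against 4 cannot go below 0.0571. It did so too with both other denominators (p = 0.143 each, exact permutation). These were the counts outside the 10 transcripts and the counts outside the 25 most abundant genes of these data, a set that holds all 10. In make-up, differences that had not passed any test changed sign with single libraries. Burn minus control was -3.33 percentage points for Co1, 0.588 for Atp6 (complex V), -0.127 for Nd3, 0.283 for Nd4, -1.36 for Nd5, 0.644 for Cyb (complex III) and -0.306 for complex IV without burn replicate 3. The opposite ends of the range over single libraries left out were 3.96, -2.96, 0.198, -0.696, 1.70, -1.66 and 5.16 in the same order. For Co3 it ran from -0.108 without burn replicate 1 to 1.82 without burn replicate 3, and on a log2 scale that of Nd5 was -0.0557. Counts per coding length were not run, since no length was at hand. No paired analysis was possible because the labels give the groups no shared replicate numbers. The lowest count of any member in any library was 8189, and the widest counting interval was ±2.17% of the share.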
